A study of Mus musculus with 2 samples.

Results

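The genes described here are 10 genes of deep layer and subplate neurons of the cerebral cortex: Bcl11b, Crym, Foxp2, Foxp1, Ldb2, Fezf2, Sox5, Tbr1, Tle4 and Zfpm2. They were chosen by name, and every peak that the deposited annotation gave to one of these symbols was taken. Of the 10, 8 had at least 1 peak, among 13253 genes with a peak in any of the 4 tables. Their peaks numbered 83 of 147297, summed over the tables. The share of all annotated genes that had a peak was not computed. Neither 8 of 10 nor the like counts of the gene lists below can be set against it. Genomic DNA came from ICR mouse embryos at embryonic day 16, with 1 library from the manually dissected V/SVZ, the germinal layer rich in neuronal progenitors, and 1 from the cortical plate (CP), rich in neurons that differentiate. Both groups shared strain and stage, and neither carried a transgene or treatment that the labels name. The number and sex of the embryos were not given. Methylated DNA was captured with a methyl-DNA enrichment kit and sequenced (MBD-seq), and a tag is 1 aligned read in a peak. Since DNA and not RNA was measured, the dissection could not be checked against marker expression.

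Deep layer neurons are born early from progenitors of the ventricular zone and send axons out of the cortex, to the thalamus, brainstem and spinal cord. Subplate neurons lie beneath them and guide early thalamic axons. A small network of transcription factors, in which Fezf2, Bcl11b, Tbr1 and Sox5 regulate one another, sorts these neurons into corticospinal, corticothalamic and subplate types. DNA methylation at CpG sites is common in gene bodies and between genes, while promoters dense in CpG are mostly free of it.

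The libraries differed in the tags of their listed peaks and in the X chromosome. The V/SVZ library held 1000061 tags in 52283 listed peaks over control and the CP library 1710134 tags in 53404. On X, 1378 peaks were called for CP over V/SVZ and 227 for V/SVZ over CP, whereas every gene described here with a peak is autosomal. With 1 library per tissue no difference below has a replicate check, and no p is given. Intervals cover counting error only, and reads without molecular identifiers are not independent molecules, so these intervals can be too narrow. In bulk DNA, a higher share of methylated copies in 1 cell type and more cells of that type cannot be told apart.

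Peaks over control showed where methylated DNA was enriched in each tissue. The 10 genes held 28 such peaks in V/SVZ and 26 in CP, in 7 genes each. Peaks lay mostly within the genes: 21 of 28 in V/SVZ (75.0%, against 80.4% of all peaks assigned to a gene) and 22 of 26 in CP (84.6%, against 77.7%). They were small. The median held 9.5 tags in V/SVZ, with a range of 6 to 74, and 11 tags in CP, with a range of 7 to 102, against medians of 12 and 18 over all peaks assigned to a gene. At the promoter (over the 5' end or up to 1 kb upstream) 2 places had a peak, in Foxp1 in both tissues and in Crym in V/SVZ. Over all listed control peaks, with or without a gene, 1.25% in V/SVZ and 1.57% in CP lay at a promoter.

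**Figure D1:**
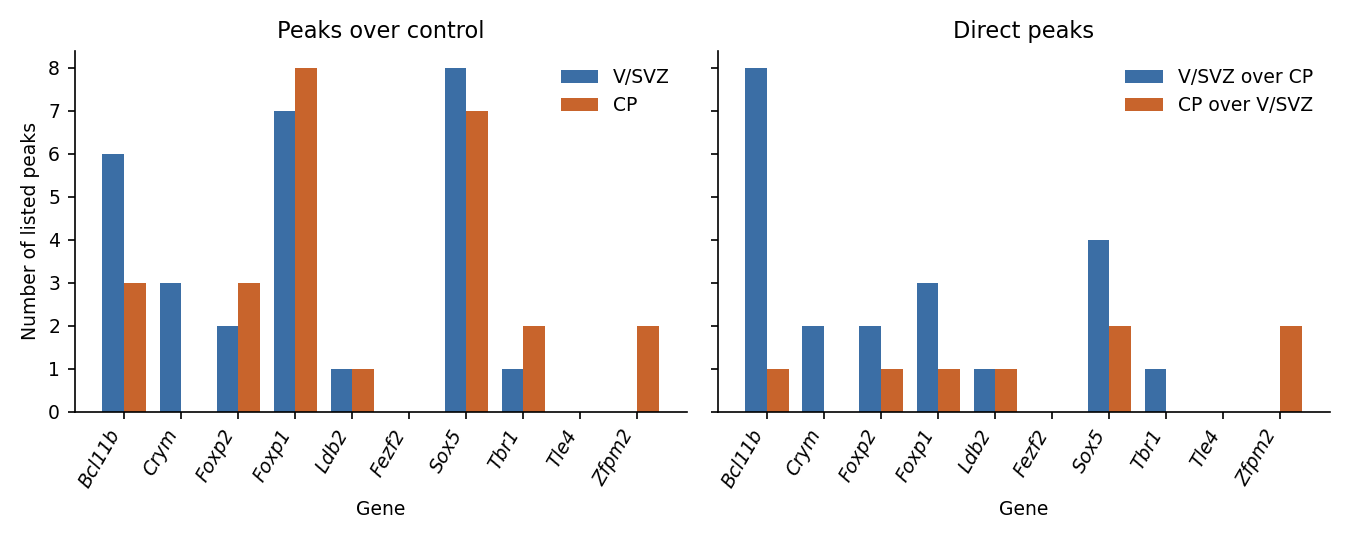
Number of listed peaks for each of the 10 genes, on the left over control in V/SVZ and CP, on the right in the 2 direct comparisons. Bcl11b had 8 V/SVZ over CP peaks and 1 in the opposite list, Zfpm2 had peaks in the CP lists alone, and Fezf2 and Tle4 had none.

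Fezf2, a zinc finger factor that selects corticospinal fate, and Tle4, a Groucho-family corepressor of layer 6 neurons, had no peak in any table. The control lists leave out some peaks of low fold, and whether one lies in either gene was not checked. Bcl11b and Tbr1 had listed peaks, but none at the promoter. The promoter windows of these 4 genes are shown for the CpG sites that they hold. Whether this capture would give a peak there if those sites were methylated was not tested. A missing peak therefore does not show that the sites were unmethylated. They are RefSeq sequences of build GRCm38.p6, from 250 bases before to 50 after a gene start. The peaks are in build mm9, and the windows were not placed on it. Windows were found for 6 of the 10 genes. The motif searched was CG, which reads the same on both strands and cannot overlap itself, and it is in capitals. The strand is minus except for Tbr1, which is on plus.

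Bcl11b, chr12:108003365-108003664: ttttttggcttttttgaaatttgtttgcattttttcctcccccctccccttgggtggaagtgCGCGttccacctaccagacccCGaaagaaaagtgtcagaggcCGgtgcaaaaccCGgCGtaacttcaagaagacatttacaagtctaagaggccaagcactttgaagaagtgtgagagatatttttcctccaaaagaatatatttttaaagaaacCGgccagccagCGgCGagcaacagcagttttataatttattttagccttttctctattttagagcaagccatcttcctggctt

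Tbr1, chr2:61804203-61804502: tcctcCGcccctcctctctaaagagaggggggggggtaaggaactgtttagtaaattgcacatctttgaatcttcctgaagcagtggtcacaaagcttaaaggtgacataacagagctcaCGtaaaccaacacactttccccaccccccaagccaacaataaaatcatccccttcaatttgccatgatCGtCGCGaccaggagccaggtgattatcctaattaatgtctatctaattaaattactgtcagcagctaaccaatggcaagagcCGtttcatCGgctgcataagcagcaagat

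Fezf2, chr14:12345816-12346115: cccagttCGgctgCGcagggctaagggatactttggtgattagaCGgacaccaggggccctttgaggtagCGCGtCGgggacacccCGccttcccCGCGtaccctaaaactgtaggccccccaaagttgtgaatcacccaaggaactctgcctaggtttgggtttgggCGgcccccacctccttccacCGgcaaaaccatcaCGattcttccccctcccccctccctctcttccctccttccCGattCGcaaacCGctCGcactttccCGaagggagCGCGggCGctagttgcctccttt

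Tle4, chr19:14597164-14597463: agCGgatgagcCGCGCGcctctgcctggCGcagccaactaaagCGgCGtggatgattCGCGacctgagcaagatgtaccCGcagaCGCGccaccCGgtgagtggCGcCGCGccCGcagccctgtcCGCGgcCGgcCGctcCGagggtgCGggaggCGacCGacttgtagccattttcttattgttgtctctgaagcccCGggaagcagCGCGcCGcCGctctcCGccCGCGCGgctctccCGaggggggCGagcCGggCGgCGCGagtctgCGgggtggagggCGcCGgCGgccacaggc

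The Bcl11b window held 9 CG and the Tbr1 window 7, and 45.8% and 52.1% of all 32851 windows held at least as many. The Fezf2 window held 20 (26.5% of windows held as many or more) and this Tle4 window 44 (2.25%). A further Tle4 window held 28, those of Foxp1 5, 13 and 44, and that of Sox5 3, beside a median of 7 over all windows. At least 1 CG was in 94.6% of all windows. A window of 44 CG was thus found both in Tle4, with no listed peak, and in Foxp1, with peaks in all 4 tables. Whether a peak lies in that Foxp1 window is not known, since the windows were not placed on mm9.

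Direct lists, each tissue over the other, asked where the layers differed in methylated DNA. In the list of V/SVZ over CP, 7 of the 8 genes with control peaks had a peak, whereas 54.6% of all genes with control peaks did. The 7 genes held 21 such peaks, which is 75.0 per 100 V/SVZ control peaks, against 44.5 per 100 over all genes. Bcl11b supplied 8 of them. Without it 13 peaks were left, or 59.1 per 100. The 21 peaks held 6 to 74 tags with a median of 9, the same as the median of 9 over all such peaks assigned to a gene, and 14 of them held 10 tags or fewer. In the opposite list, CP over V/SVZ, 6 of the 8 genes carried a peak, against 57.0% of all genes with a control peak. Their 8 peaks came to 30.8 per 100 CP control peaks, against 37.3 over all genes. Bcl11b, Foxp1, Foxp2, Ldb2 and Sox5, 5 of the 8, had peaks in both lists, against 31.3% of all genes with control peaks. The 8 genes held 28 V/SVZ and 26 CP control peaks, while the 13194 genes with control peaks held 28530 and 27024. Shares of genes, here and below, were not matched for the number of control peaks per gene.

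The authors' false discovery rate ran from 34.5% to 89.6% for the 21 V/SVZ over CP peaks, with a median of 61.8%, and was 100% for all 8 CP over V/SVZ peaks. Over the whole lists the medians were 67.6% and 100%. No direct peak of these genes thus had a rate under 34.5%.

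Whether the other tissue had a peak at the same place could be settled for most of these regions. The peak numbers follow the order along each chromosome in 100% of neighbouring peaks, and each control table stops at a lowest fold (11.48 in V/SVZ, 14.71 in CP), which leaves 6299 and 15993 numbered peaks unlisted. Where the listed neighbours on either side have consecutive numbers, no peak was called between them. Where a number is missing, an unlisted peak may lie there. Of the 21 V/SVZ over CP peaks, 6 overlapped a listed CP control peak, 11 lay where no CP control peak was called, and 4 where one may be unlisted. Over all genes these shares were 23.9%, 44.3% and 31.8%. Of the 8 CP over V/SVZ peaks, 6 lay where no V/SVZ control peak was called, against 58.8% over all genes. Another 1 overlapped a listed peak (25.0%), and 1 may have an unlisted partner (16.1%). The V/SVZ library held fewer tags in its listed peaks. Whether this left places without a V/SVZ peak called was not tested.

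**Figure D2:**
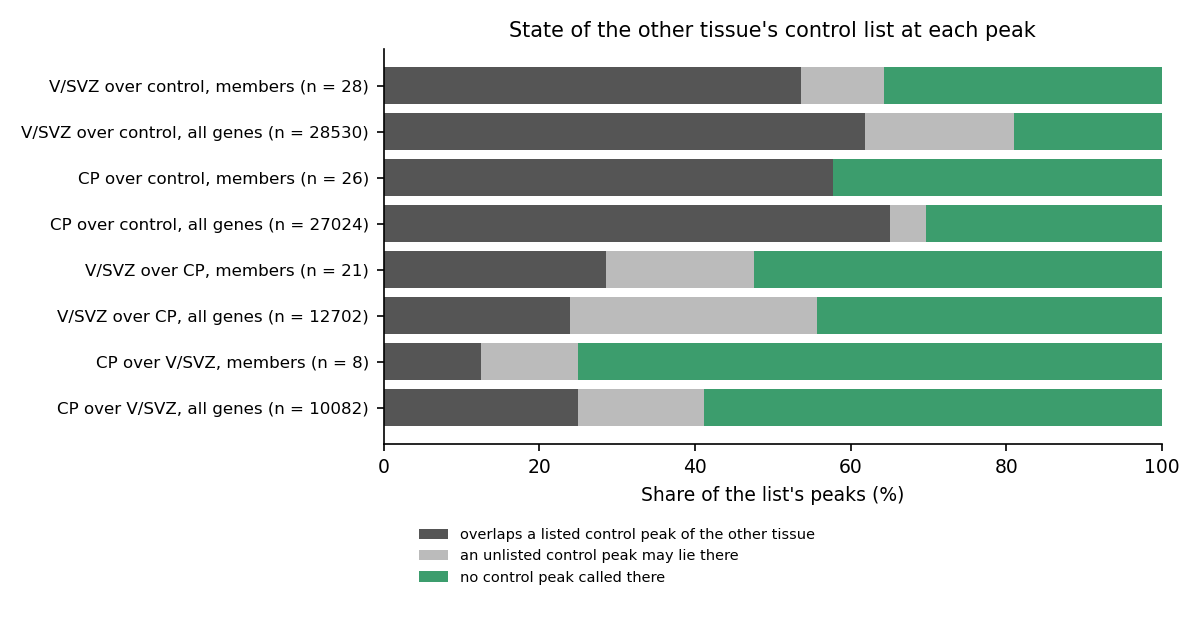
Share of peaks, in percent, whose place in the other tissue's control list overlapped a listed peak (dark), may hold an unlisted one (pale) or had none called (green), for the 10 genes and for all genes in each list. Among V/SVZ over CP peaks 11 of 21 in these genes had no CP control peak called, against 44.3% over all genes.

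Bcl11b (gene ID 58208, chromosome 12), the zinc finger factor of corticospinal neurons also known as Ctip2, had the most direct peaks of the 10. Its V/SVZ over CP peaks held 14, 8, 8, 8, 21, 74, 6 and 6 tags in order along the chromosome. The first lay 1114 bp downstream of the gene and the others inside it. The 21-tag peak (109187369 to 109187677) had the highest significance, 344.62 as 10 times the negative log10 of the authors' p, and no CP control peak was called in the 21.7 kb around it. The same was true of the 6-tag peak at 109233125 to 109233371, in a stretch of 84.1 kb. The richest peak (109203672 to 109204307) held 74 tags in V/SVZ, and a CP control peak of 44 tags overlapped it. Its downstream peak of 14 tags had a CP partner of 9. At both of these shared places V/SVZ had more tags, although the CP library held more tags in its listed peaks as a whole. The peaks of 8 tags at 109164911 and 109186209 and of 6 tags at 109236265 lay where no V/SVZ control peak was called, so that the authors' control lists do not show enrichment there in either tissue, apart from 2 unlisted CP numbers around the first.

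A different picture came from the remaining Bcl11b peaks. Inside the gene, at 109181604 to 109182015, the overlapping control peaks had 16 V/SVZ and 53 CP tags, and neither direct list had a peak there. The single CP over V/SVZ peak of Bcl11b (109153364 to 109155860, 2497 bp) held 1577 CP tags, more than all but 1 of the 19696 peaks of that list. Its fold, the authors' ratio to the local expectation, was only 2.48, against a median of 8.59 for the list. The 7 peaks of that list with at least 1000 tags had a median fold of 3.38. No listed control peak of either tissue overlapped it. The V/SVZ control numbering lacks 1 peak and the CP numbering 2 in the stretches that contain it (109147499 to 109161003 and 109147503 to 109181603), so that control peaks of low fold may lie there. The tags of the V/SVZ library at this place are therefore not known. The nearest V/SVZ over CP peak, of 8 tags, began 5.14 kb away.

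**Figure D3:**
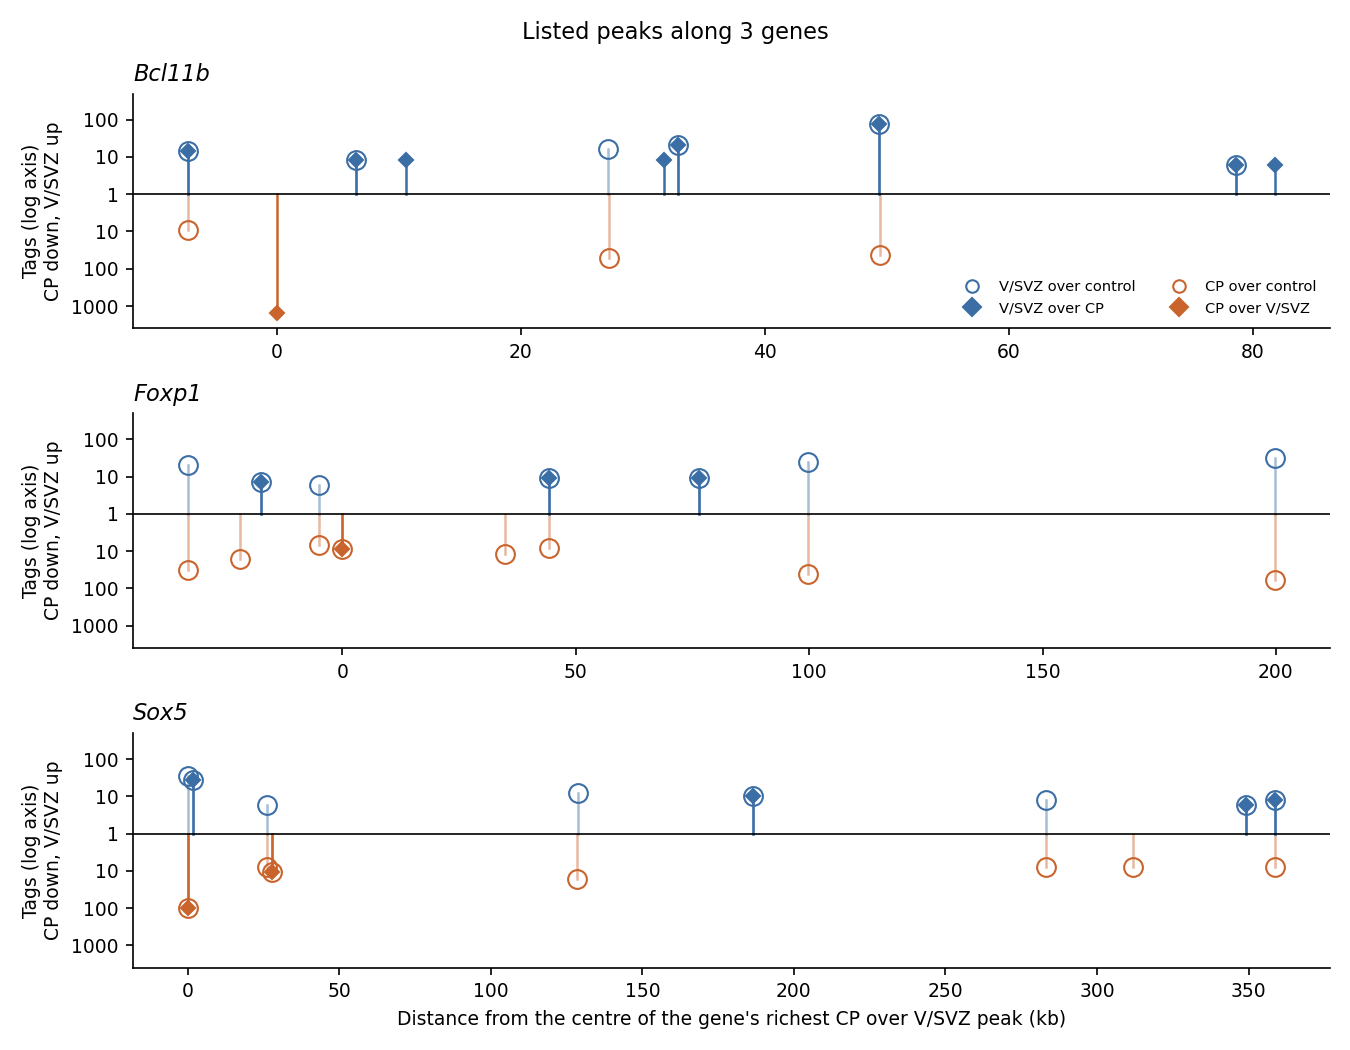
Listed peaks along Bcl11b, Foxp1 and Sox5 by distance, in kb, from the centre of each gene's richest CP over V/SVZ peak, with tags on a log axis (V/SVZ upward, CP downward). Circles are peaks over control and diamonds direct peaks. The Bcl11b peak of 1577 CP tags stands among V/SVZ over CP peaks of 6 to 74 tags.

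By numbers of direct peaks, 166 other genes had at least as many V/SVZ over CP peaks as Bcl11b, of 7229 genes with any. Its pair of counts, 8 and 1, was shared exactly by 9 other genes. The 3 of these nearest in control peaks were Ssbp3 and Tmem104, with 7 in V/SVZ and 4 in CP each, and Cul9, with 8 and 5, beside 6 and 3 for Bcl11b. This likeness rests on counts from the 2 libraries alone.

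Sox5 (gene ID 20678, chromosome 6), an HMG-box factor that controls when deep layer and subplate neurons arise, held 8 control peaks in V/SVZ and 7 in CP, all inside the gene. Of these, 5 places were shared. The richest had 35 V/SVZ and 102 CP tags (143781724 to 143782332) and was also a CP over V/SVZ peak. At 1317 bases from that direct peak, which ended at 143782280, a peak of 27 V/SVZ tags (143783598 to 143783934) was called in the opposite direction, and 1 CP control number is missing there. At the other shared places the tags were 6 and 8, 12 and 16, 8 and 8, and 8 and 8. The last of these (144140602 to 144141059) was nevertheless in the V/SVZ over CP list, with a false discovery rate of 89.6%. The remaining direct peaks of Sox5 held 10 and 6 tags for V/SVZ over CP and 11 for CP over V/SVZ, each where the other tissue had no control peak called. Unshared CP control peaks of 11 and 8 tags and V/SVZ control peaks of 27, 10 and 6 tags made up the rest.

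Foxp1 (gene ID 108655, chromosome 6), a forkhead factor of cortical projection neurons, was the only gene with a peak over its 5' end. There the V/SVZ library had 31 tags and the CP library 61 (99112634 to 99113196), and neither direct list had a peak there. The peak over its 3' end held 20 and 32 tags (98879483 to 98880253), and another inside the gene 25 and 40. Thus the richest places of Foxp1 were enriched in both tissues, with tags in about the proportion of shared peaks elsewhere. Its direct peaks were all small. V/SVZ over CP peaks held 7, 9 and 9 tags, and 1 CP over V/SVZ peak held 9. The first and last of the V/SVZ over CP peaks lay where no CP control peak was called, whereas the middle one (98957115 to 98957517) overlapped a CP control peak of 8 tags. A shared place of 6 and 7 tags and CP control peaks of 16 and 12 tags with no V/SVZ peak called completed the gene.

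Foxp2 (gene ID 114142, chromosome 6), the related forkhead factor of layer 6 neurons, had direct peaks in both directions that were far apart. A CP peak of 27 tags (14879173 to 14879585) and another of 8 lay in 334 kb with no V/SVZ control peak called, and the first was a CP over V/SVZ peak. A V/SVZ peak of 14 tags (15329492 to 15329791) lay in 322 kb with no CP control peak called and was a V/SVZ over CP peak. Between them, control peaks of 8 tags in V/SVZ and 9 in CP overlapped, and the V/SVZ peak was in the V/SVZ over CP list as well, with a false discovery rate of 60.7%. The nearest opposite direct peaks of the gene were 207 kb apart.

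Ldb2 (gene ID 16826, chromosome 5), a cofactor of LIM-domain proteins found in corticospinal neurons, had 1 control peak in each tissue, at different places. The V/SVZ peak held 9 tags (44918966 to 44919261) and was a V/SVZ over CP peak, and 1 unlisted CP control peak may lie in the surrounding 133 kb. The CP peak held 11 tags (44984453 to 44984736) and was a CP over V/SVZ peak, with no V/SVZ control peak called in 402 kb. These 2 places inside the gene were 65.2 kb apart and had opposite directions.

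Crym (gene ID 12971, chromosome 7), a crystallin that binds thyroid hormone and is made in corticospinal neurons, had peaks in the V/SVZ lists alone. Its 3 V/SVZ control peaks held 8 tags (2106 bp downstream), 11 tags (71 bp upstream) and 6 tags (5594 bp upstream). The first and second were also V/SVZ over CP peaks. No CP control peak was called anywhere in the 257 kb around the gene, a stretch that holds 4 listed V/SVZ control peaks. The 11-tag peak at the promoter (127345573 to 127345782) had the lowest false discovery rate of the 21, 34.5%, and a fold of 33.6, the highest among them. It is also upstream of Abca14, a neighbouring transporter gene, and the 6-tag peak lies inside Abca14.

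Zfpm2 (gene ID 22762, chromosome 15), a cofactor of GATA factors in corticothalamic neurons, had listed peaks in the CP lists alone. Its 2 CP control peaks, of 14 tags (40504067 to 40504365) and 11 tags (40933690 to 40934009), were both CP over V/SVZ peaks. Their false discovery rate in that list was 100%. No V/SVZ control peak was called in the 635 kb that holds them. Both lay inside the gene, and no V/SVZ list had a peak in Zfpm2. Tags were few at both places. The smallest V/SVZ control peak of the genes described here held 6 tags. Shared autosomal peaks had a median CP to V/SVZ tag ratio of 1.81. Whether the V/SVZ library had too few tags for a peak to be called in Zfpm2 was not tested.

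Tbr1 (gene ID 21375, chromosome 2), a T-box factor of corticothalamic and subplate neurons, had 1 place shared by the tissues. It lay downstream of the gene, 1763 bp from it in the V/SVZ list, with 18 V/SVZ and 7 CP tags (61653933 to 61654398). It was a V/SVZ over CP peak. A CP control peak of 10 tags inside the gene (61649389 to 61649823) had no V/SVZ peak called beside it and was in neither direct list.

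**Figure D4:**
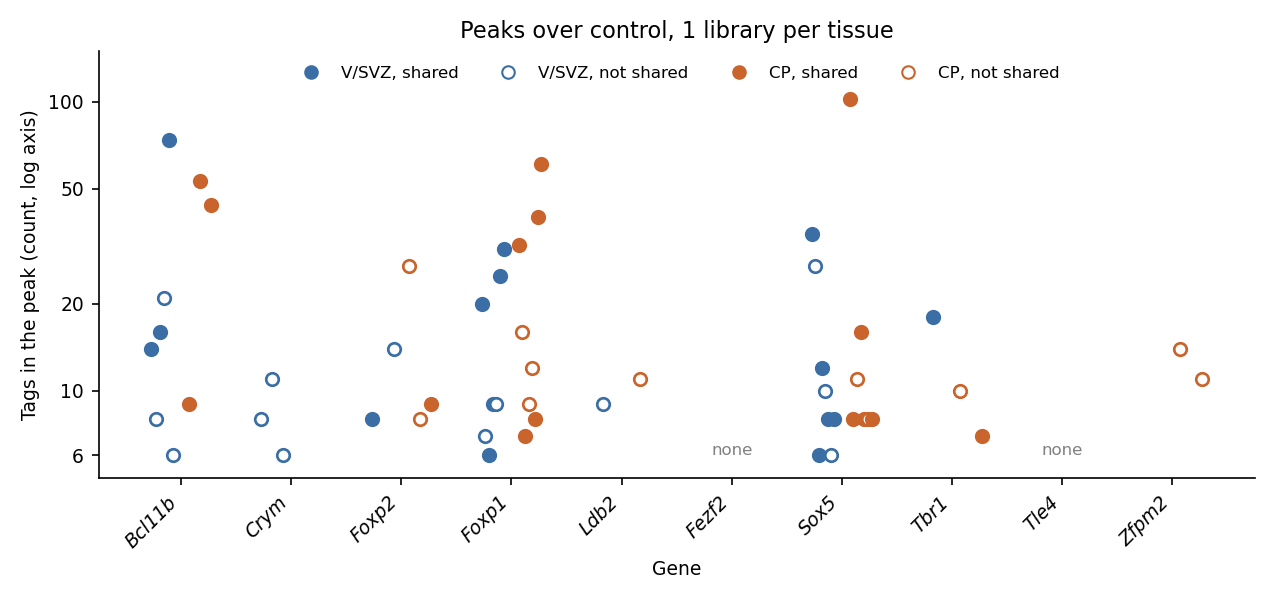
Tags, on a log axis, of every control peak of the 10 genes in V/SVZ and CP, 1 library per tissue. Filled points overlap a listed control peak of the other tissue. The highest values were 102 CP tags in Sox5 and 74 V/SVZ tags in Bcl11b.

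Places with a control peak in both tissues allow the tags to be compared. Of the V/SVZ control peaks of these genes, 15 of 28 (53.6%, Wilson 95% interval 35.8 to 70.5%) shared 1 bp or more with a control peak in CP, against 61.9% of all V/SVZ peaks assigned to a gene. In CP the share was 15 of 26 (57.7%, 38.9 to 74.5%), against 65.1%. Peaks of the same gene and library are not independent, so these Wilson intervals can be too narrow. The 15 places belonged to Bcl11b, Foxp1, Foxp2, Sox5 and Tbr1. Their median CP to V/SVZ tag ratio was 1.17, with a range of 0.389 to 3.31, against 1.81 over 32295 shared autosomal peaks, whose middle 50% lay between 1.25 and 2.58. Library totals were not given, so depth and methylation cannot be told apart in that 1.81.

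The low median went together with low tag numbers. Of the 15 places, 6 had fewer than 20 tags over both libraries (40.0%, against 13.0% of shared autosomal peaks). Shared autosomal peaks with so few tags had a median ratio of 1.29, and these 6 had 1.06. At the other 9 the median was 1.60, against 1.94 for autosomal peaks of 20 tags or more. The part of tag number in the low ratio was not tested.

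Counted as different where the ratio was at least 2 times the autosomal median or at most that median divided by 2, 4 of the 15 places stood towards V/SVZ, against 11.0% of shared autosomal peaks, and 0 towards CP, against 8.79%. These autosomal shares were not matched to the 15 places for tag number. The lowest ratio was that of Tbr1, with 18 and 7 tags (0.389, exact 95% interval 0.137 to 0.976). Only 0.579% of shared autosomal peaks had a lower one. In Bcl11b the place of 74 and 44 tags had a ratio of 0.595 (0.400 to 0.875) and that downstream, of 14 and 9 tags, 0.643 (0.245 to 1.59). All 3 intervals lay below 1.81. The remaining place was in Foxp1, with 9 and 8 tags (0.889, 0.298 to 2.60), and its interval held the median. At the upper end, the Bcl11b place of 16 and 53 tags (3.31, 1.86 to 6.21) and the Sox5 place of 35 and 102 tags (2.91, 1.97 to 4.41) had intervals above the median without reaching 2 times its value. The intervals of the other 10 places held it. Summed over the shared places of a gene, the ratio was 1.02 in Bcl11b (0.770 to 1.35), 1.63 in Foxp1 (1.24 to 2.14) and 2.06 in Sox5 (1.53 to 2.79), and in Bcl11b this sum hides ratios from 0.595 to 3.31.

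**Figure D5:**
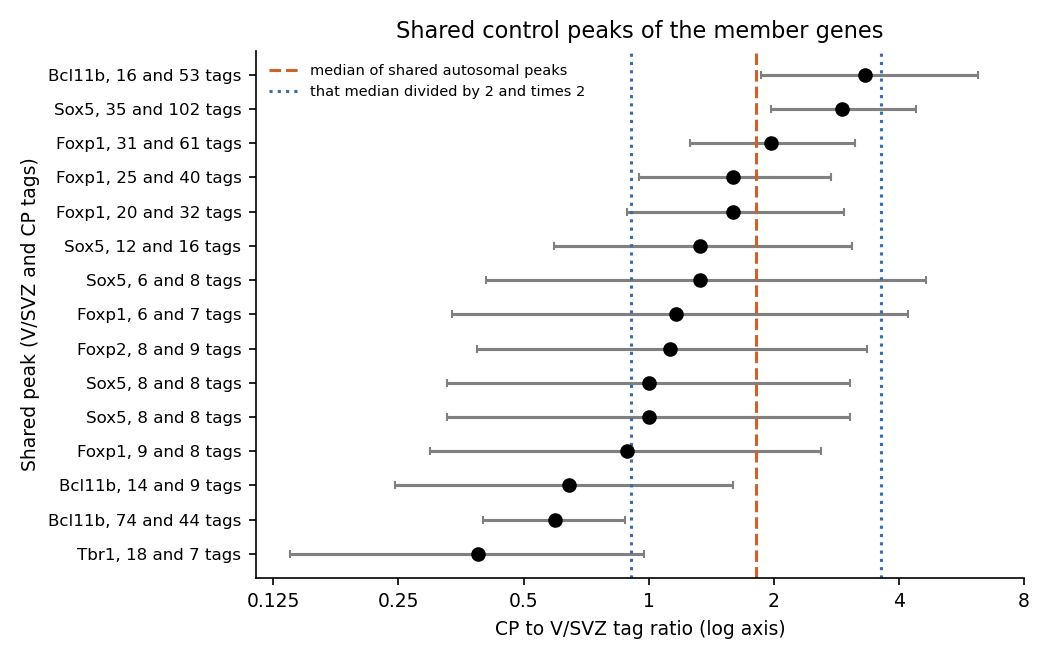
CP to V/SVZ tag ratio, on a log axis, at the 15 places with a control peak in both tissues, with exact 95% intervals for counting error. The dashed line is the median of shared autosomal peaks (1.81) and the dotted lines that median divided by 2 and times 2. The Tbr1 place and 2 Bcl11b places lie lowest, and another Bcl11b place lies highest.

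Other genes of the same neurons were counted from separate lists. Of 20 other deep layer genes, 9 had a control peak, of which 7 had peaks in the V/SVZ over CP list and 4 in the opposite list, beside 54.6% and 57.0% of all genes with control peaks. Their direct peaks came to 46.9 and 14.3 per 100 control peaks, beside 44.5 and 37.3 over all genes. Their most significant direct peaks, all inside the gene, were in Dkk3, a secreted Dickkopf-family protein (10 tags), Grik3, a kainate receptor subunit (10 tags), Ntsr1, a neurotensin receptor of layer 6 (8 tags), and Igfbp4, an insulin-like growth factor binding protein (6 tags). All 4 were V/SVZ over CP peaks where no CP control peak was called. Grik3 had 10 peaks in that list and 2 in the opposite one.

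Of 10 subplate genes, 8 had a control peak, 7 of which had peaks in the V/SVZ over CP list and 1 in the opposite list, with the same shares over all genes as above. The rates were 64.3 and 7.69 per 100 control peaks, from 9 peaks and 1. A peak 6022 bp upstream of the neurexophilin gene Nxph4 held 42 tags. In Nr4a2, a nuclear receptor that marks the subplate, the peak held 38 tags and overlapped a CP control peak of 29. The peak downstream of Ctgf, a secreted growth factor-binding protein, held 25 and overlapped one of 11. A peak in the lysophosphatidic acid receptor gene Lpar1 held 6. Each of these 4 genes had 1 V/SVZ over CP peak and 0 in the opposite list.

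Of 19 regulators that act with or against these factors, 8 had a control peak. Of these, 6 stood in the V/SVZ over CP list and 4 in the opposite list, beside 54.6% and 57.0% of all genes with control peaks. Their rates were 45.5 and 37.5 per 100 control peaks, beside 44.5 and 37.3 over all genes. Tshz2 supplied 13 of their 20 V/SVZ over CP peaks, and without it that rate was 26.9 per 100. The teashirt factor genes Tshz3 (25 tags) and Tshz2 (10 tags) and Ldb1 (11 tags, 5778 bp downstream), a cofactor related to Ldb2, led with V/SVZ over CP peaks. Ski, a transcriptional corepressor, led with a CP over V/SVZ peak of 11 tags and had 4 peaks in that list and 1 in the other. Tshz2 had 13 V/SVZ over CP peaks and 4 CP over V/SVZ peaks. Of 15 upper layer genes, all 9 with control peaks stood in the V/SVZ over CP list, against 54.6% of all genes with control peaks. Their rate was 75.9 per 100 control peaks, beside 75.0 for the 10 genes. Cux2 and Cdh13 held 49 of these 60 peaks. The rate was 55.4 without Cux2, beside 59.1 for the 10 genes without Bcl11b, and 44.0 without both Cux2 and Cdh13. In the opposite list 5 of the 9 upper layer genes carried a peak, against 57.0% of all genes with control peaks. That rate was 17.8 per 100, beside 30.8 for the 10 genes and 37.3 over all genes. The regulator and upper layer lists overlap, and the difference between the lists was not tested.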

How the data were processed

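MBD-seq libraries, 1 per tissue, were aligned by the authors with tools that the submitters' processing notes give as CASAVA 1.8 and Bowtie, on mm9. Peak names and columns have the form of MACS output, per the file headers. The caller's version, its settings and the kind of control were not given in the sources used here. Tags are deposited as a count of reads per peak, not normalized. The significance is a score given by the authors, 10 times the negative log10 of the peak's p. The fold is the authors' ratio, used only within a list. False discovery rates are the authors' values, in percent. Lengths and distances are in bp, per the file headers, and peaks are assigned to transcripts within 10 kb.

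Each peak was counted once per gene and list, at its smallest distance. Peaks of the control lists were joined where they overlapped by 1 bp, chains of peaks were summed per library, and the tag ratios carry exact binomial 95% intervals. Peaks of different length were compared without correction. Of 13253 gene IDs, 13198 matched a RefSeq gene (GRCm38.p6, used for names and promoter windows), among them all 8 genes with a peak. The members, lists and tests were chosen with earlier results of these data known. Named were all 10 genes, up to 4 genes of each other list by significance, and 3 genes like the one with the most direct peaks. The use of peak numbers to find unlisted peaks and the split at 20 tags into 2 classes were added after the values were seen. Overlap, ratio and numbering steps were tested on simulated data. Python 3.11.15, pandas 2.3.3, numpy 2.4.6 and scipy 1.17.1 were used. Alternatives were a distance limit of 5 kb, peaks at or above the median significance, direct peaks within an own control peak, the gene with the most peaks left out, an overlap of 50%, a common lowest fold, tags per bp, at least 20 tags, and single partners.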

Additional observations from a re-analysis of the deposited data

How the results depend on the processing

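The 21 V/SVZ over CP peaks of the 10 genes became 13 with peaks at or above the median significance of the list (6 genes) and 13 without Bcl11b (6 genes). They stayed at 18 to 21, in 7 genes, under the other 2 alternatives. The 8 CP over V/SVZ peaks ranged from 6 to 8 over all 4 alternatives, in 5 or 6 genes. Shared V/SVZ control peaks numbered 15 under all 3 alternatives. The median CP to V/SVZ ratio at shared places, 1.17, moved to 1.60 with at least 20 tags, against 1.94 for autosomal peaks under that limit, and to 1.03 per bp, against 1.64. It kept its value under the other 4 alternatives and lay below the autosomal median under all 6. Of 68 values for single genes under an alternative, 0 changed direction, which only the ratios among them could do and not the peak counts. The values that moved numbered 6. Among these, with the stricter significance Foxp1 kept 0 of its 3 V/SVZ over CP peaks, and with direct peaks inside an own control peak Bcl11b kept 5 of 8 and lost its CP over V/SVZ peak. No paired analysis was possible because each tissue has 1 library. Tag numbers limit the ratios, since at 6 to 9 tags per library an interval is several-fold wide, and the authors' false discovery rates leave no direct peak of these genes below 34.5%.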
